A study of Mus musculus with 6 samples.

Results

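The 10 genes described here are core genes of the canonical Wnt/β-catenin pathway: *Ctnnb1*, *Lgr4*, *Tcf7*, *Lef1*, *Tcf7l2*, *Axin1*, *Axin2*, *Apc*, *Gsk3b* and *Lrp6*. They were chosen by gene name from the 36976 genes of the RNA-Seq table, and each name matched 1 gene. RNA-Seq compared long-term (LT) chronic myelogenous leukaemia (CML) stem cells of *Gdpd3*+/+ and *Gdpd3*-/- mice, with 3 libraries per genotype (*Gdpd3*+/+ replicates 1, 2 and 3 and *Gdpd3*-/- replicates 5, 6 and 7). *Gdpd3* encodes a lysophospholipase D, an enzyme of lysophospholipid metabolism, and the comparison asked what its loss does to gene expression in these cells. Mice of both genotypes were C57BL/6 and carried *SCL-tTA* and *TRE-BCR-ABL1*, in which a tetracycline-controlled activator driven by the *Scl* stem cell enhancer turns on the BCR-ABL1 oncogene, and were taken 5 weeks after CML induction. The *Gdpd3*-/- strain carried a small genome-edited deletion just after the start codon. RNA came from 22 males and 12 females for *Gdpd3*+/+ and from 5 males and 5 females for *Gdpd3*-/-, and how these animals were divided among the libraries is not given in the sources used here. LT-CML stem cells were sorted from bone marrow as CD150+CD48-CD135-LSK cells (LSK: Lineage-Sca-1+cKit+), and whole transcripts were amplified with a low-input SMART-Seq kit before sequencing. No normal stem cells were analysed here.

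In the canonical pathway, a Wnt ligand bound by a Frizzled receptor and its co-receptor LRP6 stops a cytoplasmic destruction complex from marking β-catenin for degradation. AXIN1, AXIN2 and APC are the scaffolds of that complex, and GSK3β is among its kinases. Stabilized β-catenin, the product of *Ctnnb1*, enters the nucleus and joins the DNA-binding TCF/LEF factors, among them TCF7 (also called TCF1), LEF1 and TCF7L2. LGR4 (also called GPR48) is a receptor for R-spondins, which strengthen the Wnt signal at the membrane. In blood, β-catenin is known for its part in leukaemic stem cells, and TCF7 and LEF1 for their part in lymphocyte development.

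TCF/LEF factors bind the letters CTTTGA, which allows a look at the regulatory sequence of the genes themselves. RefSeq starts in the mouse genome build GRCm38.p6 were matched for 7 of the 10 genes, at 13 starts in all, and *Axin1*, *Apc* and *Lrp6* had none in the table used. In the 250 bases before the start, CTTTGA or its reverse complement TCAAAG was present at 2 of these 13 starts, against 13.8% of all 32851 starts in the table. Those 2 are shown with the matches in capitals, together with *Axin2*, a known target of the pathway, whose window held no match. Each is written 5′ to 3′ on the strand of its gene and carries the 250 bases before the start.
Lef1, the start farthest downstream of 4: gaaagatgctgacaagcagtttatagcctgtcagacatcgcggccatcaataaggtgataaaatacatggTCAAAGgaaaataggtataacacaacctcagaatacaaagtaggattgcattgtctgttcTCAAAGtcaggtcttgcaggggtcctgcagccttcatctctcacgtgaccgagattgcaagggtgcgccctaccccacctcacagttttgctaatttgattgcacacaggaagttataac
Gsk3b: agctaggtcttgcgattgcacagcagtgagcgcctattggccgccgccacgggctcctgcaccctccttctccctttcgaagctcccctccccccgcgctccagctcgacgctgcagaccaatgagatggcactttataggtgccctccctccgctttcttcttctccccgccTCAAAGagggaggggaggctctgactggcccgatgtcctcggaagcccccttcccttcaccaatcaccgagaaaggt
Axin2: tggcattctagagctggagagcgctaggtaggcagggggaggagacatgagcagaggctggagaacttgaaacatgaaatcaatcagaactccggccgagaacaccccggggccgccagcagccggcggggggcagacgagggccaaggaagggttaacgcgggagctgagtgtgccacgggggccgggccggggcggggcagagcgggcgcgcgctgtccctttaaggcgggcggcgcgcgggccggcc
The *Lef1* window lies at chr3:131156044-131156293 (plus strand), in an intron of the longer *Lef1* transcripts, and its matches, both TCAAAG, begin 180 and 120 bases before that start. The *Gsk3b* window is chr16:38088751-38089000 (plus strand) and its match begins 77 bases before the start. The *Axin2* window is chr11:108920099-108920348 (plus strand). Neither the *Gsk3b* nor the *Axin2* window overlaps an annotated gene. A match of these letters is a description of the sequence and not a binding site.

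Values are given as FPKM (sequenced fragments of a gene, scaled to its length and to the total of its library), in the order of the replicate numbers. Depth, recovered from the FPKM table, was 49753146 to 62762437 fragments in the *Gdpd3*+/+ libraries and 21334716 to 36421439 fragments in the *Gdpd3*-/- libraries, so low values were less precise in the latter. *Gdpd3* itself was at 7.30, 3.29 and 2.95 FPKM in *Gdpd3*+/+ and at 0.110, 0.0129 and 0.681 FPKM in *Gdpd3*-/- libraries, with no overlap (exact permutation test, two-sided, p = 0.1, below which 3 against 3 libraries cannot go). *Gdpd3* fell short of the threshold across all genes (log2 fold change −4.0, SE 0.77, limma adjusted p = 0.0588), with *Gdpd3*-/- replicate 7 highest of its group. Stem cell genes such as *Kit*, *Ly6a* (Sca-1) and *Slamf1* (CD150) were present in every library. So was *Cd48*, whose protein the sort excluded, at 39.8 to 44.8 FPKM in *Gdpd3*+/+ and 51.6 to 92.2 FPKM in *Gdpd3*-/- libraries (limma adjusted p = 0.188). *Slamf1* was lower than *Cd48* in each, at 10.1 to 11.7 FPKM and 5.41 to 13.2 FPKM. The summed level of 10 skeletal muscle genes was 837 to 1245 FPKM in *Gdpd3*+/+ and 2062 to 15570 FPKM in *Gdpd3*-/- libraries, highest in replicates 5 and 6. That of 8 neutrophil genes was 28515 to 31477 FPKM in *Gdpd3*+/+ and 7839 to 13441 FPKM in *Gdpd3*-/- libraries. Of these 8 genes, 7 were lower without overlap, beside 8.27% of all genes tested. In bulk RNA, fewer cells of a type and less RNA per cell cannot be told apart.

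The 10 genes spanned 3 orders of magnitude in level. In *Gdpd3*+/+ cells *Ctnnb1* was highest, at a mean of 60.7 FPKM ± 0.620 (SD, n = 3), and *Axin1* came next at 22.7 FPKM ± 1.04 (SD, n = 3). *Gsk3b* (4.83 FPKM), *Apc* (3.08), *Lrp6* (2.72) and *Tcf7l2* (1.58) followed, and the ranges of *Apc* and *Lrp6* overlapped. *Tcf7* (0.690 FPKM) and *Lgr4* (0.589) were below 1 FPKM and overlapped each other, and *Axin2* (0.0497) and *Lef1* (0.0453) were lowest and likewise overlapped. In *Gdpd3*-/- cells *Ctnnb1*, *Axin1* and *Gsk3b* kept the first 3 ranks, at means of 50.9, 24.0 and 5.94 FPKM. *Tcf7* moved from rank 7 to rank 4 with a mean of 3.94 FPKM, *Lef1* from rank 10 to rank 8, and *Lgr4* from rank 8 to rank 10. The ranges of neighbours from *Gsk3b* to *Apc*, and from *Lef1* to *Lgr4*, overlapped in that group.

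**Figure D1:**
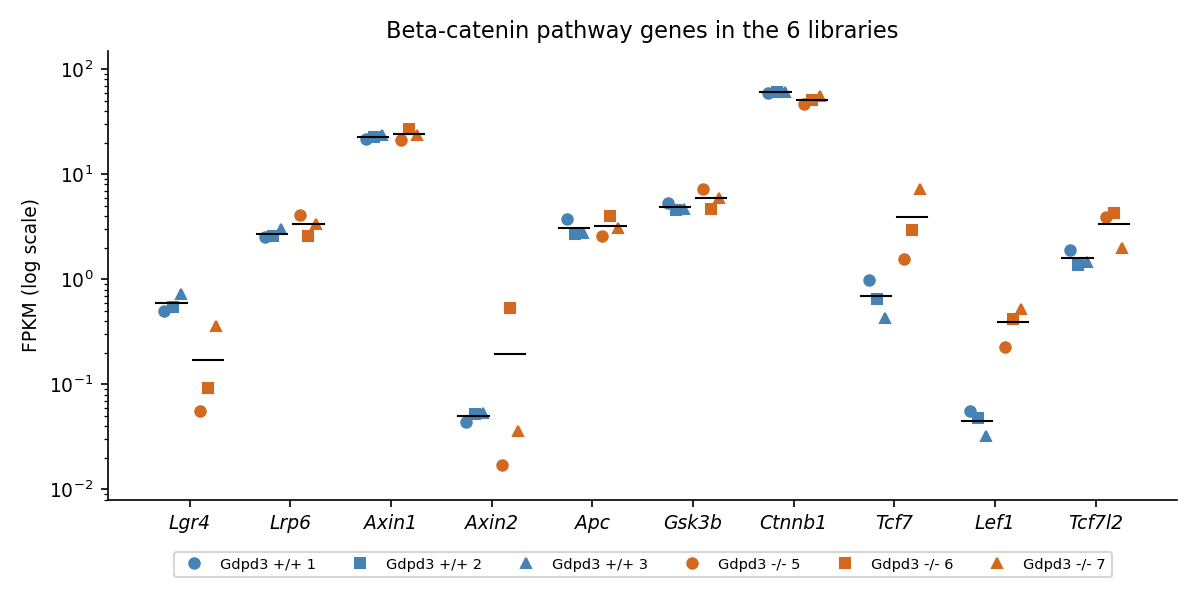
Level in FPKM (log axis) of each of the 10 genes in the 6 libraries, with *Gdpd3*+/+ in blue, *Gdpd3*-/- in orange, a marker shape per replicate and a black line at each group mean. The genotypes do not overlap for *Lgr4*, *Ctnnb1*, *Tcf7*, *Lef1* and *Tcf7l2*, and the spread is wider among the *Gdpd3*-/- libraries for each of the 10 genes.

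None of the 10 genes passed the test between the genotypes at an adjusted p under 0.05 (limma on log2(FPKM + 0.1), Benjamini-Hochberg over 24689 genes), where 1.71% of all genes tested passed, 1.09% higher and 0.616% lower in *Gdpd3*-/-. That split turned with the scaling, from 270 higher and 152 lower calls to 117 and 241 after trimmed-mean (TMM) scaling and to 119 and 206 after quantile normalization. At an unadjusted p under 0.05, 5 of the 10 differed, 3 being higher and 2 lower, beside 22.2% of all genes (16.5% higher and 5.76% lower). That count fell to 2 without *Gdpd3*+/+ replicate 2 or 3 or *Gdpd3*-/- replicate 5. It was 3 without *Gdpd3*+/+ replicate 1 or *Gdpd3*-/- replicate 6 and 5 without *Gdpd3*-/- replicate 7. Over all genes it fell from 5493 of 24689 to 3356 of 24887, 3525 of 24855 and 3238 of 24862 without *Gdpd3*+/+ replicates 1, 2 and 3. Without *Gdpd3*-/- replicates 5, 6 and 7 it was 5626 of 23727, 6292 of 23839 and 7451 of 24056. The 5 found with all 6 libraries were those whose genotypes did not overlap. *Tcf7*, *Lef1* and *Tcf7l2* were higher and *Ctnnb1* and *Lgr4* lower in every *Gdpd3*-/- library. Of all genes tested, 31.8% did not overlap, 23.5% being higher and 8.27% lower in *Gdpd3*-/-. Over all genes tested the log2 fold change had a median of 0.24, so a value near 0.24 is no change relative to all genes tested. Among genes with a mean of at least 1 FPKM, 7 of the 10 members included, the median was 0.14. For the 10 genes the median was 0.27, and 6 of them lay above the median of all genes.

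**Figure D2:**
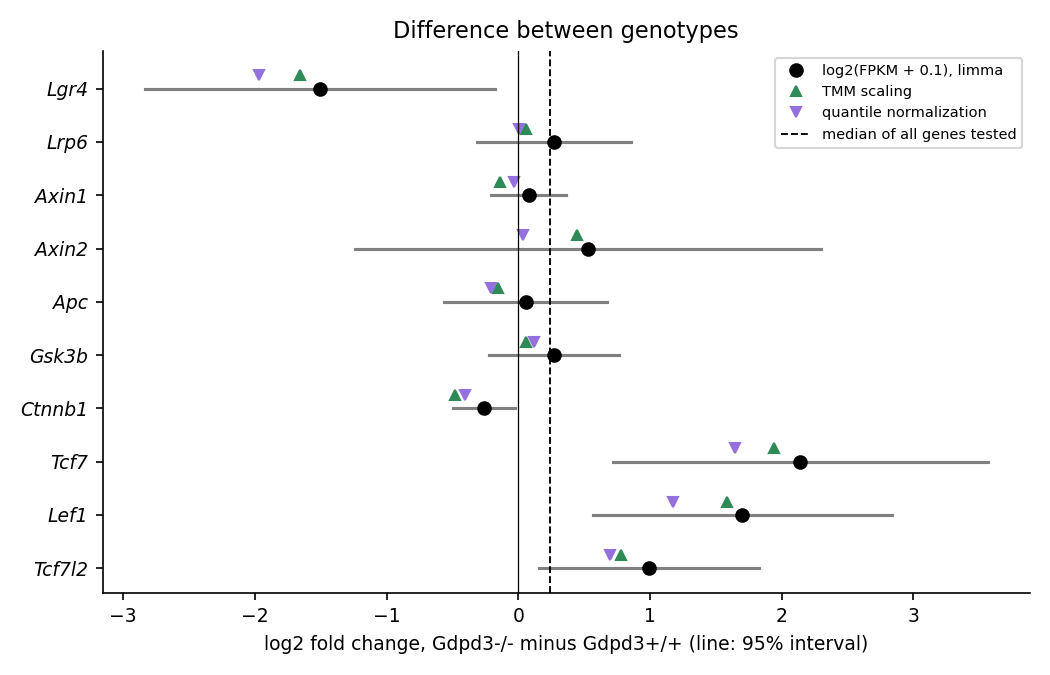
Log2 fold change of each gene, *Gdpd3*-/- minus *Gdpd3*+/+, from limma on log2(FPKM + 0.1) (black points, with the 95% interval as a line), with the values after TMM scaling and quantile normalization as triangles. The dashed line is the median of all genes tested, 0.24, and the points of *Axin1* and *Apc* move to below 0 under both of these scalings.

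Among the receptors, *Lgr4* was lower in *Gdpd3*-/- libraries and *Lrp6* overlapped. *Lgr4* was at 0.499, 0.542 and 0.727 FPKM in *Gdpd3*+/+ and at 0.0558, 0.0933 and 0.358 FPKM in *Gdpd3*-/- libraries, which rest on 146, 200 and 262 against 7, 20 and 53 fragments. Replicate 7 stood closest to *Gdpd3*+/+, and the groups did not overlap. The counting interval of that library, 0.268 to 0.469 FPKM (95% Poisson, counting error only), overlapped that of *Gdpd3*+/+ replicate 1, 0.421 to 0.586 FPKM. The ratio of the means was 3.48 (*Gdpd3*+/+ over *Gdpd3*-/-), and the log2 fold change was −1.51 (SE 0.56, limma adjusted p = 0.182). Without *Gdpd3*-/- replicate 7 it was −1.98 with a limma adjusted p of 0.0397, in a fit that called 14.2% of all genes. *Lgr4* lies on mouse chromosome 2 (109757804 to 109854414, plus strand, build mm9), and its exons share no base with another gene.

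*Lgr4* is one of 3 related R-spondin receptor genes, with *Lgr5*, known as a marker of intestinal stem cells, and *Lgr6*. Its share of their summed FPKM was 62.3%, 74.0% and 84.2% in *Gdpd3*+/+ and 35.5%, 11.2% and 45.0% in *Gdpd3*-/- libraries. The mean share was 73.5% ± 10.9 against 30.6% ± 17.4 (SD, n = 3 each, two-sided exact permutation p = 0.1, adjusted 0.3 over 9 shares). Such a share is taken within a library and does not depend on scaling between libraries. *Lgr5* was at 0.122, 0.165 and 0.137 FPKM in *Gdpd3*+/+ and at 0.0152, 0.739 and 0.302 FPKM in *Gdpd3*-/- libraries, so in replicate 6 it exceeded *Lgr4*. *Lgr6* was at 0.180, 0.0251 and 0 FPKM against 0.0863, 0 and 0.136 FPKM, so in replicate 5 it exceeded *Lgr4*. In replicate 5 *Lgr4*, *Lgr5* and *Lgr6* rest on 7, 3.33 and 7 fragments, so the share in that library is imprecise. The sum of the 3 genes overlapped between the genotypes, at 0.732 to 0.863 against 0.157 to 0.832 FPKM. The tested genes with a mean of at least 1 FPKM whose profile over the 6 libraries was most like that of *Lgr4* were *Igkv6-32*, *Slc12a4*, *Tada2b*, *Gm16194* and *Anxa3*, at root mean square distances of 0.18 to 0.24 on the centred log2 scale. *Igkv6-32* belongs to a family of similar immunoglobulin genes, whose reads can be split between copies. The 6 plasma cell genes summed to 117783 to 136163 FPKM in *Gdpd3*+/+ and to 40147 to 68831 FPKM in *Gdpd3*-/- libraries. Within *Gdpd3*-/- both this sum and *Lgr4* were highest in replicate 7. All 6 plasma cell genes were lower without overlap and 2 were called lower, beside 8.27% and 0.616% of all genes. Their part in the result for *Lgr4* was not tested.

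*Lrp6* was at 2.55, 2.56 and 3.04 FPKM in *Gdpd3*+/+ and at 4.08, 2.57 and 3.40 FPKM in *Gdpd3*-/- libraries. Its replicate 6 lay within the *Gdpd3*+/+ range and the other 2 above it. The log2 fold change was 0.27 (95% interval −0.31 to 0.86, limma adjusted p = 0.519). The median was 0.24 over all genes and 0.14 among genes with a mean of at least 1 FPKM. The share of *Lrp6* in the sum with its paralogue *Lrp5* was 68.6% ± 2.70 in *Gdpd3*+/+ and 62.7% ± 5.14 in *Gdpd3*-/- (SD, n = 3 each) and overlapped (two-sided exact permutation p = 0.2). *Lrp5* was at 1.13, 1.34 and 1.25 FPKM against 2.79, 1.17 and 2.25 FPKM, with replicate 6 again the lowest of *Gdpd3*-/-.

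In the destruction complex, the levels of *Axin1*, *Apc* and *Gsk3b* overlapped between the genotypes and those of *Axin2* turned on 1 library. *Axin1* was at 21.6, 22.7 and 23.7 FPKM in *Gdpd3*+/+ and at 21.4, 26.9 and 23.8 FPKM in *Gdpd3*-/- libraries. Its log2 fold change was 0.08 (95% interval −0.21 to 0.36, limma adjusted p = 0.700) and became −0.14 with TMM scaling and −0.030 with quantile normalization. *Apc* was at 3.77, 2.72 and 2.76 FPKM against 2.57, 4.03 and 3.08 FPKM, with a log2 fold change of 0.06 (95% interval −0.56 to 0.67, limma adjusted p = 0.908) that TMM scaling moved to −0.16 and quantile normalization to −0.21. Neither gene therefore had a settled direction.

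*Gsk3b* was at 5.31, 4.56 and 4.64 FPKM in *Gdpd3*+/+ and at 7.19, 4.66 and 5.97 FPKM in *Gdpd3*-/- libraries. Replicates 5 and 7 lay above every *Gdpd3*+/+ library and replicate 6 among them, the same order as for *Lrp6*. The log2 fold change was 0.27 (95% interval −0.22 to 0.77, limma adjusted p = 0.471). *Gsk3a*, the paralogue with which GSK3β shares many substrates, was the more abundant of the pair, at 14.9 FPKM ± 0.314 and 17.1 FPKM ± 3.16 (SD, n = 3 each). The share of *Gsk3b* in their sum was 26.0%, 23.1% and 24.1% against 34.8%, 20.2% and 23.6%, which overlapped (two-sided exact permutation p = 0.9).

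*Axin2*, a feedback inhibitor that β-catenin and TCF/LEF are known to induce in many tissues, was nearly absent. It was at 0.0438, 0.0521 and 0.0533 FPKM in *Gdpd3*+/+ libraries, from 12, 18 and 18 fragments. In *Gdpd3*-/- libraries it was at 0.0170, 0.534 and 0.0361 FPKM, from 2, 107 and 5 fragments. Replicate 6 alone was high, and the other 2 lay below the *Gdpd3*+/+ range. The counting intervals of those 2 (0.00206 to 0.0615 and 0.0117 to 0.0843 FPKM) covered every *Gdpd3*+/+ value, so a difference between them and *Gdpd3*+/+ was not detectable at this depth. The log2 fold change was 0.53 (95% interval −1.24 to 2.30, limma adjusted p = 0.675), and without replicate 6 the gene fell below the level at which genes were tested. *Axin2* was 0.0794% to 1.95% of the summed *Axin1* and *Axin2* level in the 6 libraries. The exons of *Axin2* (chromosome 11, 108781663 to 108812097, plus strand, mm9) share 209 bases with *Gm11670* on the opposite strand, which was listed at 0 in every library.

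*Ctnnb1*, the gene of β-catenin (chromosome 9, 120838334 to 120869625, plus strand, mm9), was lower in every *Gdpd3*-/- library by a small amount. It was at 60.0, 61.0 and 61.2 FPKM in *Gdpd3*+/+ and at 46.3, 50.8 and 55.7 FPKM in *Gdpd3*-/- libraries, with 5034 to 19528 fragments behind each value. The highest *Gdpd3*+/+ value was 1.02 times the lowest, and every *Gdpd3*-/- value was below them. The ratio of the means was 1.19 (*Gdpd3*+/+ over *Gdpd3*-/-), and the log2 fold change was −0.26 (SE 0.10, limma adjusted p = 0.195). *Ctnnb1* lay 0.50 below the median of all genes, 0.24, which was 0.14 among genes with a mean of at least 1 FPKM. The log2 fold change of *Ctnnb1* was −0.48 with TMM scaling and −0.41 with quantile normalization (limma adjusted p = 0.0955 and 0.117). Its exons share 240 bases with *Ulk4* on the opposite strand, a gene at 2.39 to 3.77 FPKM, and reads of the shared bases cannot be assigned in a kit that does not mark strand.

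*Jup* encodes γ-catenin (plakoglobin), the closest relative of β-catenin and a component of cell junctions. It was at 2.34, 2.39 and 2.38 FPKM in *Gdpd3*+/+ and at 5.79, 5.16 and 3.81 FPKM in *Gdpd3*-/- libraries, without overlap (log2 fold change 1.0, SE 0.22, limma adjusted p = 0.0780). The share of *Ctnnb1* in the sum of both was 96.2%, 96.2% and 96.3% in *Gdpd3*+/+ and 88.9%, 90.8% and 93.6% in *Gdpd3*-/- libraries (two-sided exact permutation p = 0.1, adjusted 0.3 over 9 shares). *Ctnnb1* remained the main catenin of the pair in all 6 libraries.

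The TCF/LEF genes were the members with the largest positive log2 fold changes. *Tcf7* (chromosome 11, 52065873 to 52096681, minus strand, mm9) was at 0.980, 0.657 and 0.433 FPKM in *Gdpd3*+/+ and at 1.55, 2.96 and 7.31 FPKM in *Gdpd3*-/- libraries. No library of one genotype reached the range of the other, and the *Gdpd3*-/- values differed among themselves up to 4.73-fold. The ratio of the means was 5.71, and the log2 fold change was 2.14 (SE 0.60, 95% interval 0.72 to 3.57, limma adjusted p = 0.108). With 1 library left out the adjusted p was 0.0854 to 0.347, and the log2 fold change stayed positive.

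*Lef1* (chromosome 3, 130813389 to 130927274, plus strand, mm9) was at 0.0557, 0.0480 and 0.0321 FPKM in *Gdpd3*+/+ and at 0.227, 0.418 and 0.519 FPKM in *Gdpd3*-/- libraries. The fragments behind these values were 24, 26.05 and 17 against 42, 131.67 and 113, where fractions are read here as shared fragments. The exons of *Lef1* share no base with another gene, and what these fragments were shared with is not known. The highest *Gdpd3*+/+ counting interval ended at 0.0829 FPKM and the lowest *Gdpd3*-/- interval began at 0.164 FPKM, so the gap was larger than counting error. The ratio of the means was 8.58, and the log2 fold change was 1.70 (SE 0.48, limma adjusted p = 0.109), which the pseudocount of 0.1 FPKM understates at this level. With voom weights on the recovered fragments, an analysis added after the data were seen, the log2 fold change was 3.09 (limma adjusted p = 0.0360) and *Lef1* was the only one of the 10 genes called, where 3.66% of all genes were.

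*Tcf7l2* (chromosome 19, 55816300 to 56008144, plus strand, mm9) was at 1.89, 1.38 and 1.47 FPKM in *Gdpd3*+/+ and at 3.89, 4.27 and 1.99 FPKM in *Gdpd3*-/- libraries. Replicate 7 lay just above the highest *Gdpd3*+/+ library, which is the reverse of its place for *Tcf7*. The ratio of the means was 2.14, and the log2 fold change was 0.99 (SE 0.35, limma adjusted p = 0.168). Without replicate 7 it was 1.32 with a limma adjusted p of 0.0287, again against 14.2% of all genes called in that fit.

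Marker levels also differed between the libraries, and their part in the results for these genes was not tested. For *Tcf7l2*, replicates 5 and 6 were also the libraries with the highest skeletal muscle sum, 10810 and 15570 FPKM against 2062 FPKM in replicate 7. All 10 muscle genes were higher without overlap in *Gdpd3*-/- libraries, beside 23.5% of all genes, and none of the 10 was called. For *Tcf7* and *Lef1*, which T cells and lymphoid progenitors express, the summed level of 9 T cell genes was 6.95 to 7.62 FPKM in *Gdpd3*+/+ libraries and 9.42, 8.12 and 17.0 FPKM in *Gdpd3*-/- replicates 5, 6 and 7. Of these 9, *Cd3d*, *Cd3e*, *Cd3g*, *Cd8a* and *Bcl11b* were under 1 FPKM in all 6 libraries, and none of the 9 was called or was without overlap. *Lck* (10.1 FPKM) and *Il7r* (4.20 FPKM) were highest in replicate 7, the library with the most *Tcf7*, while *Cd4* was highest in replicate 5 (2.31 FPKM) and *Cd28* in *Gdpd3*+/+ replicate 3 (1.12 FPKM). The sort left out cells with the surface markers CD4, CD8 and B220, which mature T and B cells carry. The summed level of 9 B cell genes overlapped, at 72.9 to 78.2 against 70.9 to 98.4 FPKM, and none of the 9 was called. Of these, 3 (*Cd79b*, *Ebf1* and *Rag1*) were higher without overlap and none lower, beside 23.5% and 8.27% of all genes. In *Gdpd3*+/+ libraries *Ebf1* was only at 0.0563 to 0.0836 FPKM and *Rag1* at 0 to 0.0076 FPKM. *Flt3*, which encodes the CD135 that the sort excluded, was at 9.80 to 11.0 FPKM in *Gdpd3*+/+ and at 36.8 to 46.5 FPKM in *Gdpd3*-/- libraries (limma adjusted p = 0.00562), and *Cd34* rose as well (limma adjusted p = 0.0204).

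As a family of 4 with *Tcf7l1*, the TCF/LEF genes summed to 3.57, 2.91 and 2.86 FPKM in *Gdpd3*+/+ and to 8.73, 8.20 and 10.8 FPKM in *Gdpd3*-/- libraries. The sum was formed after 3 of its genes had been seen to be higher, so it is given without a test, at 3.11 FPKM ± 0.399 in *Gdpd3*+/+ and 9.26 FPKM ± 1.40 in *Gdpd3*-/- (SD, n = 3 each). Each *Gdpd3*-/- library reached its sum with a different mixture. *Tcf7l2* made up 52.8%, 47.5% and 51.6% in *Gdpd3*+/+ and 44.6%, 52.0% and 18.3% in *Gdpd3*-/- libraries. *Tcf7* made up 27.4%, 22.5% and 15.1% against 17.7%, 36.1% and 67.4%. *Tcf7l1*, known chiefly as a repressor of pathway targets, made up 35.1% in replicate 5, where it was at 3.07 FPKM, and 6.75% and 9.44% in replicates 6 and 7. *Lef1* was the smallest part in every library, and its share alone did not overlap, at 1.56%, 1.65% and 1.12% against 2.6%, 5.09% and 4.79% (two-sided exact permutation p = 0.1, adjusted 0.3 over 9 shares). In all, 3 of the 9 paralogue shares did not overlap, those of *Lef1*, *Lgr4* and *Ctnnb1*.

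**Figure D3:**
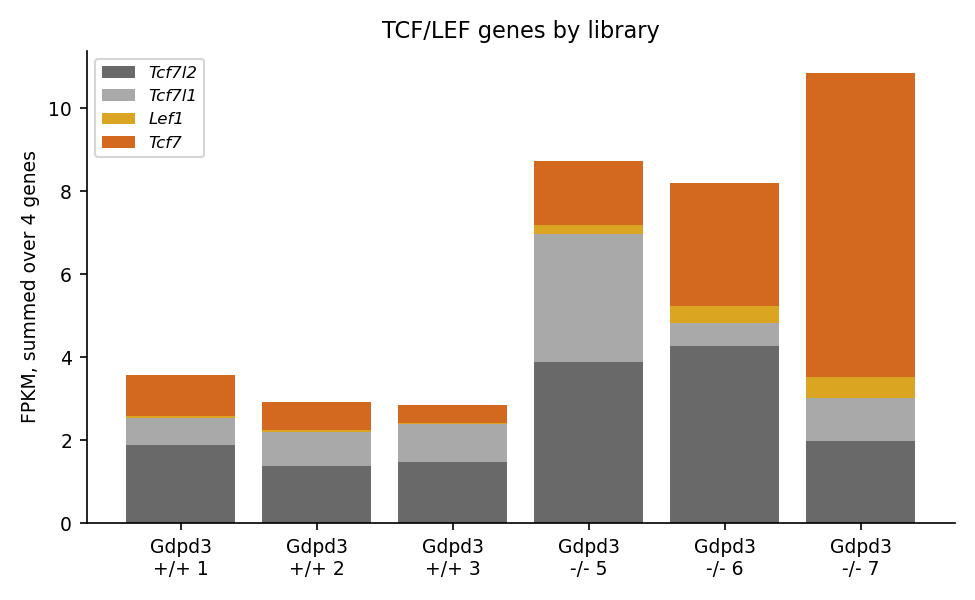
FPKM of *Tcf7l2*, *Tcf7l1*, *Lef1* and *Tcf7* stacked for each of the 6 libraries. The 3 *Gdpd3*-/- bars reach 8.20 to 10.8 FPKM and the 3 *Gdpd3*+/+ bars 2.86 to 3.57 FPKM, and *Tcf7* is the largest part in *Gdpd3*-/- replicate 7 only.

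How far these differences rest on single libraries was read by leaving out each in turn. *Lgr4* and *Tcf7l2* passed the threshold without *Gdpd3*-/- replicate 7 and in no other such fit, and *Tcf7*, *Lef1* and *Ctnnb1* passed in none. Replicate 7 was the *Gdpd3*-/- library nearest to *Gdpd3*+/+ for *Lgr4*, *Ctnnb1* and *Tcf7l2* and the farthest for *Tcf7* and *Lef1*. The direction of these 5 genes was the same in each of these fits. Without *Gdpd3*-/- replicate 6 the number of the 10 genes without overlap rose from 5 to 8, beside 45.2% of all genes in the same 5 libraries, with *Gsk3b* and *Lrp6* higher and *Axin2* lower in the 2 libraries left.

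**Figure D4:**
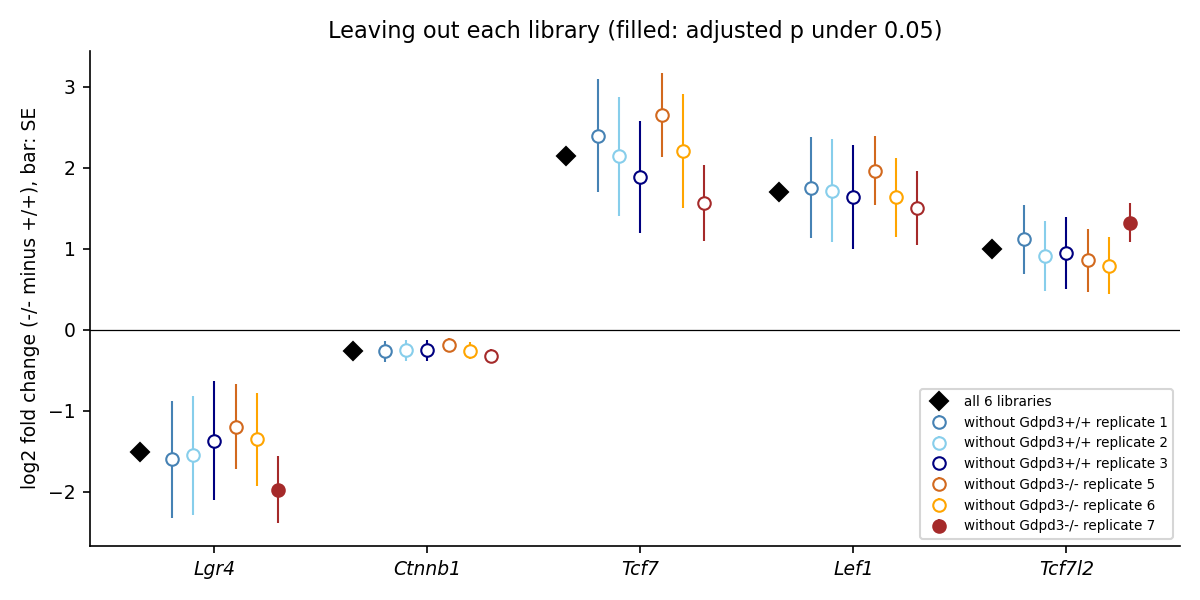
Log2 fold change (*Gdpd3*-/- minus *Gdpd3*+/+) of the 5 genes whose genotypes do not overlap, with all 6 libraries (diamonds) and without each library in turn (circles, bars are SE). Filled circles, for *Lgr4* and *Tcf7l2* without *Gdpd3*-/- replicate 7, have an adjusted p under 0.05, and no circle crosses to the other side of 0.

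The wider pathway was read from 7 lists holding 129 genes, the 10 members included, of which 106 had a mean of at least 0.05 FPKM and were tested. Only *Sox4* was called, 1 of 106 against 1.71% of all genes. *Sox4*, a transcription factor of progenitor cells listed here as a β-catenin target, was at 17.4, 18.3 and 15.4 FPKM in *Gdpd3*+/+ and at 39.3, 41.1 and 37.1 FPKM in *Gdpd3*-/- libraries (log2 fold change 1.2, SE 0.11, limma adjusted p = 0.0141). Its spread within each genotype was small beside the 2.30-fold ratio of the means. *Sox4* was no longer called when any 1 of the *Gdpd3*+/+ libraries was left out, in fits that called 0 to 21 of all genes, or when the variance prior ignored mean level. Of the 106 genes, 23 were higher and 11 lower without overlap, 32.1% against 31.8% of all genes, and the median log2 fold change was 0.25 against 0.24.

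The lists differed in their medians. Among the 17 tested target genes, 6 were higher and 1 lower without overlap, with a median of 0.66 against 0.24 of all genes. A high median was not particular to the target genes. It was 0.63 for the tested ligand and secretion genes and 0.64 for the tested extracellular inhibitors. Of all genes, 23.5% were higher and 8.27% lower without overlap. *Jun*, an AP-1 subunit, was at 66.2, 69.8 and 63.0 FPKM against 150, 104 and 234 FPKM (log2 fold change 1.21, limma adjusted p = 0.0798). *Birc5*, the apoptosis inhibitor survivin, was at 33, 38.0 and 37.3 FPKM against 27.4, 28.2 and 28.1 FPKM (log2 fold change −0.37, limma adjusted p = 0.101). *Tcf7* and *Lef1* are in this list as well as being members, and the list median was 0.51 against 0.04 of all genes with TMM scaling and 0.10 against −0.01 with quantile normalization. Of the 27 TCF partners and cofactors 13 were higher and 1 lower without overlap, beside 23.5% and 8.27% of all genes. The list median was 0.35 (0.14 with TMM scaling and 0.08 with quantile normalization), and *Tcf7*, *Lef1* and *Tcf7l2* are among the 13. The 1 that was lower, *Hdac2*, a histone deacetylase, was at 49.8, 46.9 and 49.8 FPKM against 22.5, 33.7 and 39.7 FPKM (log2 fold change −0.65, limma adjusted p = 0.137).

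The 9 tested catenins and cadherins had a median of −0.26, with *Jup* higher and *Ctnnb1*, *Ctnnd1* and *Ctnnal1* lower without overlap. For this list and those below, the shares of all genes were again 23.5% higher and 8.27% lower. *Ctnnal1*, which encodes an α-catenin-like protein, was at 4.75, 3.97 and 4.74 FPKM against 2.39, 1.83 and 3.92 FPKM (limma adjusted p = 0.206). The 21 tested destruction complex and regulator genes had a median of 0.07 (−0.15 with TMM scaling and −0.07 with quantile normalization), with *Dvl2* and *Dvl3* higher and *Fbxw11* and *Usp7* lower without overlap. *Fbxw11*, a ubiquitin ligase subunit that recognizes phosphorylated β-catenin, was at 29.6, 29.4 and 28.3 FPKM against 22.4, 19.9 and 26.5 FPKM (log2 fold change −0.35, limma adjusted p = 0.182). Among the 19 tested receptors, with a median of 0.27, *Fzd5* and *Fzd9* were higher and *Lgr4* lower without overlap. *Fzd9*, a Frizzled receptor, was at 1.05, 1.22 and 1.12 FPKM against 4.70, 4.85 and 1.61 FPKM (log2 fold change 1.48, limma adjusted p = 0.127), the same order over the *Gdpd3*-/- libraries as the skeletal muscle sum, whose part in it was not tested. Of the 25 ligand and secretion genes only 13 were expressed enough to be tested. *Wnt10a*, a Wnt ligand, was at 2.83, 2.46 and 2.67 FPKM against 1.92, 0 and 1.95 FPKM (log2 fold change −1.88, SE 1.15, limma adjusted p = 0.375). Of the 15 extracellular inhibitor genes 7 were tested, with *Kremen1* higher and *Dkk3* lower without overlap. The genes named here without values were picked after their values were seen, as the ones behind each small count.

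**Figure D5:**
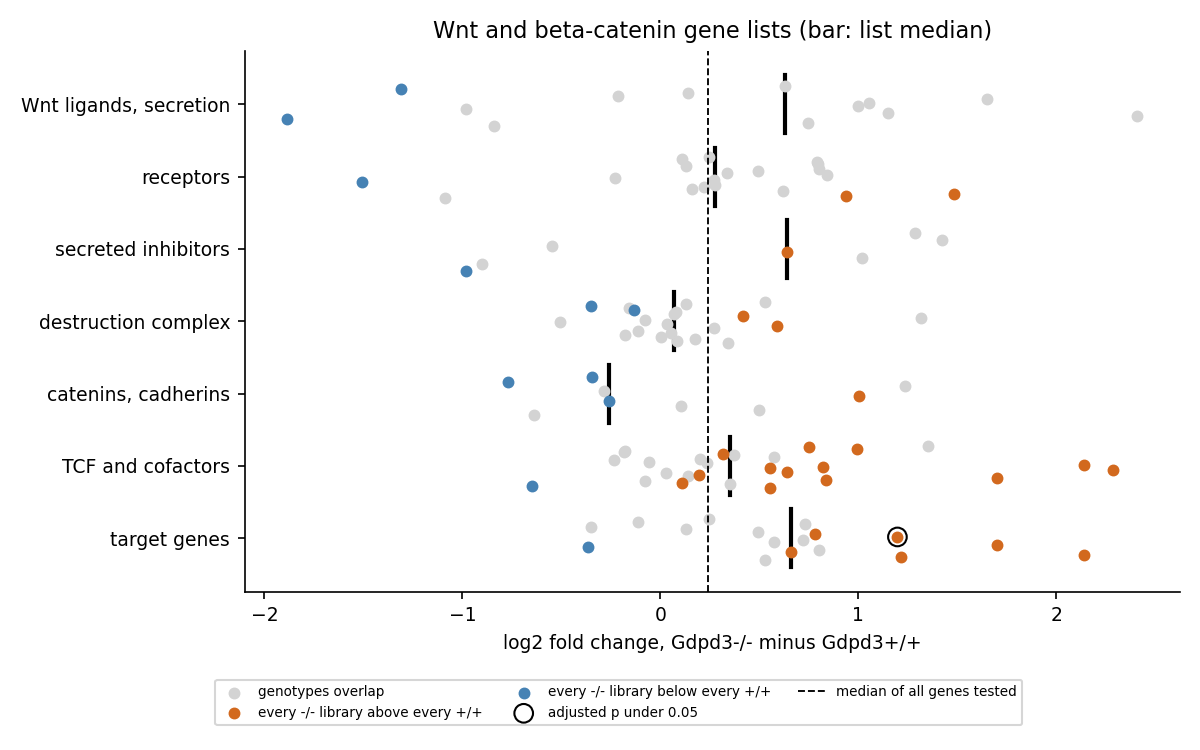
Log2 fold change (*Gdpd3*-/- minus *Gdpd3*+/+) of every tested gene in the 7 pathway lists, with a black bar at each list median and the median of all genes as a dashed line. Orange and blue points are genes whose *Gdpd3*-/- libraries all lie above or below every *Gdpd3*+/+ library, and the circled point, *Sox4*, is the only one with an adjusted p under 0.05.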

How the data were processed

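The RNA-Seq libraries, 6 in number and 3 per genotype, were assigned to groups by genotype label. The authors mapped paired-end reads with STAR 2.6.1a, and the submitters' processing notes also name cutadapt 1.16, featureCounts 1.6.1 and the mouse build mm9. The deposited FPKM values cover 36976 genes and were used as the authors made them. A deposited DESeq2 table holds the authors' own comparison of the genotypes and was not used. FPKM times gene length, scaled by each library's depth, gave whole hundredths of a fragment for 100% of values (within 0.05 hundredths), as counting with fractions for shared reads does, and these were taken as recovered fragments. Whether fragments are independent molecules is not known, so counting intervals (95%, exact Poisson) cover counting error only.

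Genes whose FPKM averaged 0.05 or more (24689) were tested on the log2(FPKM + 0.1) scale in limma 3.58.1 (R 4.3.3), its variance prior following mean level, with genotype as the only term and Benjamini-Hochberg adjustment over all genes tested. Fold changes on this scale understate those of low genes. Two-sided exact permutation tests of single values were run in SciPy 1.17.1. The study calls the libraries biologically independent, but how animals were pooled into them is not given, so p-values measure the spread between these libraries.

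The 10 members, the gene lists and the tests were chosen with earlier results of these data known. Genes named are the members, their paralogues, *Gdpd3*, every pathway gene called, the 5 largest rises and falls among pathway genes with a mean of at least 1 FPKM and no overlap, the marker genes that define a list, and the 5 profiles nearest to *Lgr4*. The same search for *Ctnnb1* is not reported here. The fits were repeated with a pseudocount of 0.01 or 1, without a filter or with a mean of at least 1 FPKM, after TMM or quantile scaling, with array weights, with a variance prior that ignores mean level, and with each library left out. Voom on recovered fragments and the counts of genes without overlap when a library was left out were added after seeing the data. Gene positions are those of the deposited table (mm9), and promoter sequences are RefSeq's in GRCm38.p6.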

Additional observations from a re-analysis of the deposited data

How the results depend on the processing

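The sample labels link no *Gdpd3*+/+ library to a *Gdpd3*-/- library, so no paired analysis was made. Of the 146 alternative log2 fold changes of the 10 genes, 135 kept both direction and side of the threshold, 3 passed it and 8 changed sign. Those that passed were *Lgr4* and *Tcf7l2* without *Gdpd3*-/- replicate 7 and *Lef1* with voom on recovered fragments, so the count of members called was 0, or 1 with voom, and 0 to 2 with 1 library left out. The sign changed for *Axin1*, to −0.14 with TMM scaling and −0.030 with quantile normalization, and for *Apc*, to −0.16 and −0.21. With 1 library left out, *Axin1* ranged from −0.0036 to 0.16 and *Apc* from −0.11 to 0.21. The cause was not tested. *Lgr4*, *Lef1* and *Axin2* were not tested at a mean of at least 1 FPKM, nor *Axin2* without *Gdpd3*-/- replicate 6. Members at an unadjusted p under 0.05 numbered 2 with array weights, 3 with quantile normalization and 4 with TMM scaling or without the intensity trend. All genes at that level numbered 4615, 4766, 4882 and 4913 in these fits, against 5493 in the main fit.

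The 422 calls over all genes became 225 with a pseudocount of 1, 213 without a filter, 673 at a mean of at least 1 FPKM, 153 without the intensity trend, 240 with array weights and 903 with voom, and 0 to 3413 with 1 library left out (0 without *Gdpd3*+/+ replicate 1, 1 without replicate 2, 21 without replicate 3, 187 without *Gdpd3*-/- replicate 5 and 3413 without replicate 7). The share of higher calls moved with them, from 270 of 422 to 671 of 903 with voom, 79 of 153 without the intensity trend and 124 of 240 with array weights, while lower calls were the majority with TMM scaling (241 of 358) and quantile normalization (206 of 325). Pathway genes called numbered 0 without the intensity trend, 2 with array weights (*Jun* and *Sox4*) and 4 with voom (*Crebbp*, *Jup*, *Lef1* and *Sox4*), and 0 to 14 with 1 library left out, 0 without any one *Gdpd3*+/+ library and 14 without *Gdpd3*-/- replicate 7. *Gdpd3* passed the threshold at a mean of at least 1 FPKM (−4.0, limma adjusted p = 0.0481) and ranged from −4.79 without replicate 7, where it also passed (adjusted p = 0.0106), to −3.39 with 1 library left out. Shares without overlap numbered 3 to 6 of 9 with 1 library left out (5 without *Gdpd3*-/- replicate 5 and 6 without replicate 6). Of 63 alternative share differences 62 moved by less than the spread between replicates, and that of *Lef1* rose from 2.72 to 4.86 percentage points as a share of reads. Within that spread the sign still changed for *Axin2*, from 0.508 to −0.103 percentage points without *Gdpd3*-/- replicate 6. It also changed for *Gsk3b*, from 1.75 to −2.54 percentage points without *Gdpd3*-/- replicate 5. The low genes, *Lef1* and *Axin2* above all, rest on few fragments, and the *Gdpd3*-/- libraries are the shallower.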
